A study of Mus musculus with 4 samples.

Results

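Long intergenic noncoding RNAs (lincRNAs) are spliced or unspliced transcripts from between protein-coding genes that carry no long open reading frame. They were followed here in mouse embryonic stem cells that had been directed towards mesoderm and collected at day 3. The members were the genes typed lincRNA in the deposited table whose mean over the 4 libraries was 5 TPM or more (a transcript abundance corrected for length and set to the same total in each library). Of 51826 genes in the table, 4873 were lincRNAs, 2840 of which were listed at 0 in every library and 490 of which averaged at least 1 TPM. The threshold left 134, and setting aside the imprinted H19, Meg3 and Mirg left 131 members, or 2.69% of the lincRNAs. The mean that chose them was taken over both genotypes, so they were chosen by measured level, and their levels are a description with no test. Of the 131, 105 reached 5 TPM in both group means, 21 in the Stk40-/- mean alone and 5 in the wild-type mean alone.

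The comparison was between 2 genotypes, with 2 libraries each. The first were Stk40-/- cells, which lack Stk40, the gene of a serine/threonine pseudokinase, and the second wild-type cells. Both were labelled as C57BL/6 in background. Both had been kept on feeder fibroblasts with LIF, CHIR99021 and PD0325901, passaged onto gelatin, treated for 2 days with 10 ng/ml BMP4, and moved for the last day into medium with 1 uM CHIR99021, an inhibitor of GSK3, and 0.5% DMSO. The labels do not say how the allele was made, how many cell lines there were, or whether each library had a culture of its own. The p-values therefore reflect the spread between these libraries, which may be technical. The labels name reads of 100 or of 150 bases from different instruments without saying which library had which, so read length cannot be told apart from genotype or replicate. TPM keeps no sequencing depth, so the depth behind a value is unknown.

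Stk40, as a check of the labels, was at 3.54 and 3.17 TPM in the Stk40-/- libraries, against 28.9 and 39.9 TPM in the wild-type libraries. The streak and mesoderm genes T, Mixl1, Msgn1, Eomes, Tbx6, Mesp1, Pdgfra and Kdr summed to 362 and 222 TPM in the Stk40-/- libraries, against 1148 and 552 TPM in the wild-type libraries. Most of each sum was T, 4 of the 8 lay below wild type in both libraries, and 4 averaged under 1 TPM, including Mesp1, which defines early cardiac mesoderm. The pluripotency genes Pou5f1, Nanog, Sox2, Esrrb and Zfp42 summed to 633 and 683 TPM, against 521 and 655 TPM. Most of each sum was Pou5f1, which overlapped at 372 and 465 TPM, against 370 and 473 TPM. Nanog lay above wild type, at 219 and 166 TPM, against 113 and 132 TPM. Zfp42 lay below, at 12.6 and 13.0 TPM, against 18.0 and 17.5 TPM, and Sox2 and Esrrb overlapped. Neuroectoderm genes (Sox1, Sox3, Pax6 and Tubb3) summed to 31.4 and 45.1 TPM in Stk40-/- cells, against 18.0 and 27.9 TPM in wild type. Fibroblast genes (Col1a1, Col1a2, Col3a1, Postn and Thy1), a mark of carried-over feeder cells, summed to 18.7 and 15.8 TPM, against 18.6 and 30.2 TPM. The 4 other than Thy1 lay below wild type in both libraries. Col1a1 had 3.96 and 3.74 TPM in Stk40-/- cells, against 6.98 and 7.29 TPM in wild type, while Thy1, the largest part of the Stk40-/- sums, had 13.1 and 9.17 TPM, against 7.28 and 9.42 TPM. Whether these differences in cell state contribute to any lincRNA value was not tested, and in bulk RNA fewer cells of a type and less RNA per cell cannot be told apart.

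LincRNAs are made by RNA polymerase II, and many are capped, spliced and polyadenylated like messenger RNAs, though they are on average less abundant and more restricted to single cell types. Known modes of action include scaffolding of nuclear bodies (Neat1 in paraspeckles), hosting small nucleolar RNAs or microRNAs within introns, binding proteins or microRNAs, and acting on neighbouring genes through the act of transcription. In mouse embryonic stem cells many are controlled by the pluripotency factors, and a set whose levels follow the pluripotent state is named Platr, for pluripotency-associated transcripts.

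The members spanned 5.01 to 614 TPM in mean level, with a median of 9.76 TPM. There were 9 at 100 TPM or more, 9 between 50 and 100, 19 between 20 and 50, 28 between 10 and 20, and 66 between 5 and 10. Together they made up 0.588% and 0.496% of all TPM in the Stk40-/- libraries, against 0.504% and 0.481% in the wild-type libraries. The 8 most abundant held 58.4% and 57.3% of that sum in Stk40-/- cells, and 53.6% and 58.8% in wild-type cells. Few genes thus held most of the members' sum in every library. Just inside the threshold were 6720427I07Rik (5.19 TPM), Gm45899 (5.03 TPM) and Halr1 (5.01 TPM), and just outside it AC137127.1 (4.96 TPM), Gm44728 (4.92 TPM) and AC113059.2 (4.91 TPM).

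The most abundant member was Gm45836 (ENSMUSG00000110631.1, Gm42047 in GENCODE vM21, chromosome 8, 121833247 to 121841178, plus strand, GRCm38), at 712 and 668 TPM in the Stk40-/- libraries, against 539 and 537 TPM in the wild-type libraries. The groups did not overlap, and the log2 fold change (computed on log2(TPM + 1)) was 0.36 (SE 0.06; limma adjusted p = 0.287). This scale understates differences of low genes. The next were Platr13 (chromosome 11, 41218837 to 41221096), at 707 and 466 TPM, against 525 and 460 TPM, and Platr15 (chromosome 2, 150704536 to 150706876), at 666 and 436 TPM, against 495 and 420 TPM. Both belong to the Platr set named above. Their groups overlapped, and in each genotype the first library was the higher. The ratio of Platr13 to Platr15 was 1.06 and 1.07 in the Stk40-/- libraries and 1.06 and 1.09 in the wild-type libraries, although the genes lie on different chromosomes.

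CT009718.4 (Gm46430, chromosome 13, 74579358 to 74617945) followed at 372 and 359 TPM in Stk40-/- cells, against 315 and 320 TPM in wild type, with no overlap (log2 fold change 0.20, SE 0.06; limma adjusted p = 0.407). Gm37381 (chromosome 1, 3905739 to 3986215) had 269 and 197 TPM, against 273 and 244 TPM. AC153370.2 (Gm47761, chromosome 10, 17318085 to 17323228) had 260 and 228 TPM, against 188 and 196 TPM (log2 fold change 0.34, SE 0.09; limma adjusted p = 0.401). Among the 8, Gm45836, CT009718.4 and AC153370.2 were thus above wild type in both Stk40-/- libraries, and the others overlapped. Over all tested genes 27.5% were above in this way. Gm45836 and AC153370.2 share sequence, as given below, so they are not separate observations.

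**Figure D1:**
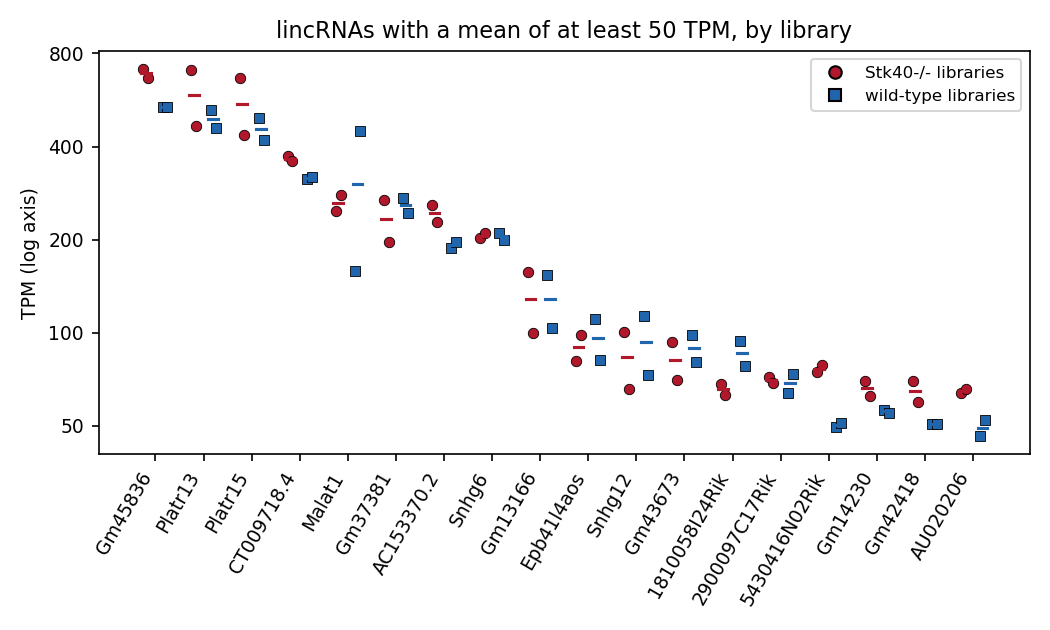
TPM on a log axis for the 18 lincRNAs with a mean of at least 50 TPM, in order of mean level. Points are libraries (circles Stk40-/-, squares wild type) and bars are group means; Gm45836 stands at 712 and 668 TPM in Stk40-/- cells, against 539 and 537 TPM in wild type, and the wild-type libraries of Malat1 lie farther apart (158 and 449 TPM) than any other pair shown.

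Several abundant members share sequence with other transcripts, which bears on how reads could be divided among them. A copy was scored where another GENCODE vM21 gene matched at least 100 bases of a transcript of the lincRNA at 95% identity or more on the same strand. Genes of small RNA and ribosomal RNA types were left out. Of the 130 members with a position in GENCODE vM21, 52 (40.0%) had such a copy. In 23 (17.7%) a copy covered at least 50% of any 1 transcript, which need not be the longest. 2900097C17Rik, for example, counted through a transcript of 339 bases, where its longest has 4915. Among the 353 positioned lincRNAs with a mean of 1 to 5 TPM, 22.7% had a copy and 6.5% had one over at least 50%, a difference that was not tested. Gm45836 and AC153370.2 matched each other at 99.3% identity over 1115 bases. AC153548.2, another member, matched Gm45836 over 2510 bases at 99.1% and was at 27.2 and 24.6 TPM in Stk40-/- cells, against 21.9 and 19.2 TPM in wild type. All 3 of these related RNAs lay above wild type in both Stk40-/- libraries, with log2 fold changes of 0.36, 0.34 and 0.32, and since they share sequence they are not independent observations. CT009718.4 likewise matched its neighbours CT009718.1, CT009718.2 and CT009718.3, and the coding gene Zfp825 over 474 bases at 96.2%.

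In the comparison of genotypes, 0 of the 131 members passed an adjusted p of 0.05 in limma in either direction, where 0% of the 15739 genes tested passed as higher and 0% as lower. Unadjusted, 19 members (14.5%) were under 0.05, 14 of them higher and 5 lower in Stk40-/- cells, and over all tested genes the share was 11.0%. The groups were separated with Stk40-/- on top in 36 members (27.5%), and over all tested genes that share was 27.5%. They were separated with Stk40-/- underneath in 15 members (11.5%), against 16.6% over all tested genes, and they overlapped in 80. The share of members above wild type was thus that of all tested genes. The share below was under theirs. Among the 356 lincRNAs with a mean of 1 to 5 TPM, 20.8% lay above and 11.5% below. The median log2 fold change of the members was 0.18 (quartiles -0.16 and 0.42), where that of all tested genes was 0.07. It was also 0.07 for the 10096 protein-coding genes averaging 5 TPM or more. In lincRNAs at 1 to 5 TPM it was 0.12. At means of 5 to 20 TPM it was 0.19 for 94 members and 0.09 for 3874 protein-coding genes. At means of 20 TPM or more it was 0.04 for 37 members and 0.06 for 6222 protein-coding genes, so there the members were not the higher. Without Stk40-/- library 1 the median of the members was 0.06, where that of all tested genes was 0.05. Without wild-type library 2 it was 0.07 for members and 0.05 for all tested genes. Over the 105 members that reached 5 TPM in both group means the median was 0.11. A member that reached the threshold through 1 genotype alone had to differ, so these counts describe the members and support nothing more.

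Replicates of the lincRNAs lay farther apart than those of coding genes, a difference that is described here and not tested. The median absolute difference between the 2 Stk40-/- libraries was 0.36 on the log2(TPM + 1) scale for members, and 0.15 for protein-coding genes of 5 TPM or more. Between the 2 wild-type libraries it was 0.38 for members and 0.17 for these coding genes. At matched level, with means of 5 to 20 TPM, the median for 94 members was 0.44 between Stk40-/- libraries and 0.47 between wild-type libraries. For 3874 coding genes of that level it was 0.21 between Stk40-/- libraries and 0.24 between wild-type libraries. The median absolute log2 fold change between genotypes was 0.32 for members, a difference between means of 2 libraries. In 33 members the libraries of at least 1 genotype were more than 2-fold apart on the log2(TPM + 1) scale. The 6 members Lsmem2, Platr11, Gm43994, 1700021A07Rik, BC028471 and Gm37350 were listed at 0 in at least 1 library. Past a 2-fold difference between genotypes were 14 of the 131 members, 9 higher in Stk40-/- cells and 5 lower. Over all tested genes 3.84% were past that size as higher and 4.70% as lower. Among the 105 members that reached 5 TPM in both group means, 6 were past it, 2 higher and 4 lower. The others past it reached 5 TPM in 1 group mean alone, which required a difference.

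**Figure D2:**
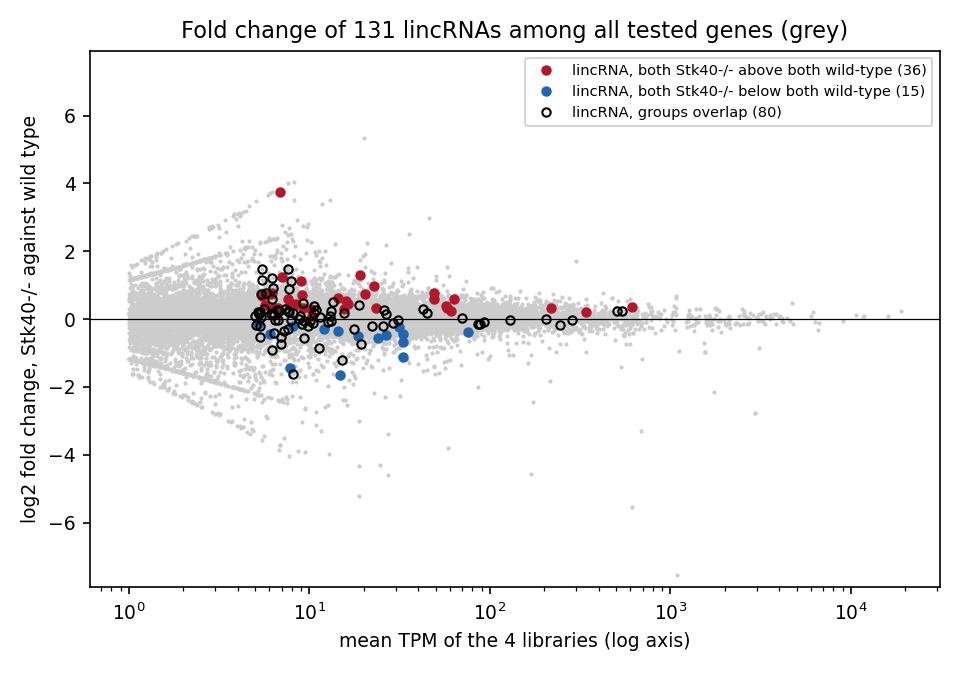
Log2 fold change of Stk40-/- over wild type (from log2(TPM + 1)) plotted against the mean TPM of the 4 libraries on a log axis, for 131 lincRNAs and for all 15739 tested genes in grey. Red points are the 36 lincRNAs separated with Stk40-/- on top, blue points the 15 separated with Stk40-/- underneath, and open circles the 80 whose groups overlap; most members past a 2-fold difference have means of 5 to 20 TPM.

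Among members above wild type in both Stk40-/- libraries, the 10 with the smallest unadjusted p were Gm43994, Gm12319, 5430416N02Rik, Gm14260, Gm45836, Gm43733, Gm14321, Gm6712, AC153370.2 and AU020206. Gm43994 (chromosome 6, 58192321 to 58194765) was at 19.9 and 7.57 TPM in Stk40-/- cells and was listed at 0 in both wild-type libraries, so no fold is given. Gm12319 (chromosome 11, 70654741 to 70656493, minus strand) had 65.5 and 58.6 TPM, against 37.1 and 34.8 TPM in wild type (log2 fold change 0.77, SE 0.11; limma adjusted p = 0.265). The spread within each genotype was small for Gm12319, and its start lies 709 bases from that of Eno3, the muscle enolase, which is transcribed in the opposite direction. Eno3 was at 46.7 and 29.7 TPM in Stk40-/- cells, against 25.9 and 21.1 TPM in wild type (log2 fold change 0.65, SE 0.26; limma adjusted p = 0.476), so both genes of that pair lay above wild type.

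Gm14260 (chromosome 2, 168986566 to 168987373), an RNA of 2 exons, had 30.3 and 25.0 TPM in Stk40-/- cells, against 9.05 and 12.2 TPM in wild type (log2 fold change 1.31, SE 0.20; limma adjusted p = 0.265). Its nearest coding gene, Zfp64, a zinc finger gene, was on the other side at 27.5 and 27.3 TPM, against 38.3 and 28.0 TPM. Gm43733 (2400006E01Rik, chromosome 3, 41521247 to 41528474) had 36.3 and 25.4 TPM, against 16.0 and 13.8 TPM (log2 fold change 0.99, SE 0.22; limma adjusted p = 0.350). In both lincRNAs the lower Stk40-/- value stood well clear of the higher wild-type one.

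5430416N02Rik, on chromosome 5, had 74.5 and 78.5 TPM in Stk40-/- cells, against 49.6 and 51.2 TPM in wild type (log2 fold change 0.59, SE 0.09; limma adjusted p = 0.265). AU020206 (chromosome 7, 75769038 to 75782099) had 63.7 and 65.7 TPM, against 46.3 and 52.2 TPM (log2 fold change 0.39, SE 0.11; limma adjusted p = 0.401). Among the lower-level RNAs, Gm14321 had 12.0 and 13.0 TPM, against 6.76 and 4.01 TPM (log2 fold change 1.12, SE 0.27; limma adjusted p = 0.385). Gm6712 (chromosome 17, 17294443 to 17319511) had 12.7 and 8.03 TPM, against 4.68 and 2.96 TPM (log2 fold change 1.23, SE 0.33; limma adjusted p = 0.4002). It shares 501 bases at 95.4% identity with Zfp97 and 472 at 95.1% with Zfp960, which are zinc finger genes. In these RNAs, as in the preceding ones, every Stk40-/- library was above every wild-type library by the rule that named them. Gm6712 and Gm43994 also reached 5 TPM in the Stk40-/- mean alone, so the choice of members required them to differ.

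On the other side, AC192616.1 (ENSMUSG00000112935.1, Gm40983 in GENCODE vM21, chromosome 13, 65380329 to 65382097, plus strand, 2 exons) had the smallest p of any member. It was at 19.6 and 21.5 TPM in Stk40-/- cells, against 48.7 and 42.7 TPM in wild type, a log2 fold change of -1.11 (SE 0.13; limma adjusted p = 0.233). The Stk40-/- values lay close together and far below both wild-type values, and no other GENCODE transcript matched this RNA by the rule for copies. Lncenc1 (chromosome 13, 97434970 to 97497007), a lincRNA that supports self-renewal of naive mouse embryonic stem cells, had 19.8 and 18.4 TPM in Stk40-/- cells, against 29.6 and 27.8 TPM in wild type (log2 fold change -0.56, SE 0.12; limma adjusted p = 0.343). 1810058I24Rik, which also encodes a small mitochondrial peptide, had 68.4 and 63.0 TPM, against 94.2 and 78.1 TPM (log2 fold change -0.38, SE 0.13; limma adjusted p = 0.441).

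Further members named on the lower side included RNAs with uneven replicates and RNAs with copies. CT009748.1 (Gm47001, chromosome 9, 11102513 to 11119398) had 4.09 and 8.09 TPM in Stk40-/- cells, against 35.1 and 11.8 TPM in wild type (log2 fold change -1.66, SE 0.60; limma adjusted p = 0.448). Wild-type library 1 held the highest value, and without it the log2 fold change was -0.92. AC159297.4 had 13.1 and 12.2 TPM, against 16.5 and 16.1 TPM (log2 fold change -0.34, SE 0.14; limma adjusted p = 0.473). Gm29562 had 27.0 and 28.3 TPM, against 44.5 and 32.6 TPM, and had a log2 fold change of -0.45, or -0.23 without wild-type library 1. Its whole length matches AL607131.1 at 97.2% identity, and AL607131.1 was also below wild type, at 56.5 and 49.8 TPM, against 75.9 and 61.9 TPM. Gm29084, alike at 99.0% over 584 bases, had 7.72 and 9.10 TPM, against 10.6 and 11.2 TPM. Of Gm29562, 93.8% matches Noct, the gene of a circadian phosphatase, at 95.2% identity. Noct itself was at 45.6 and 36.4 TPM in Stk40-/- cells, against 49.1 and 39.8 TPM in wild type.

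**Figure D3:**
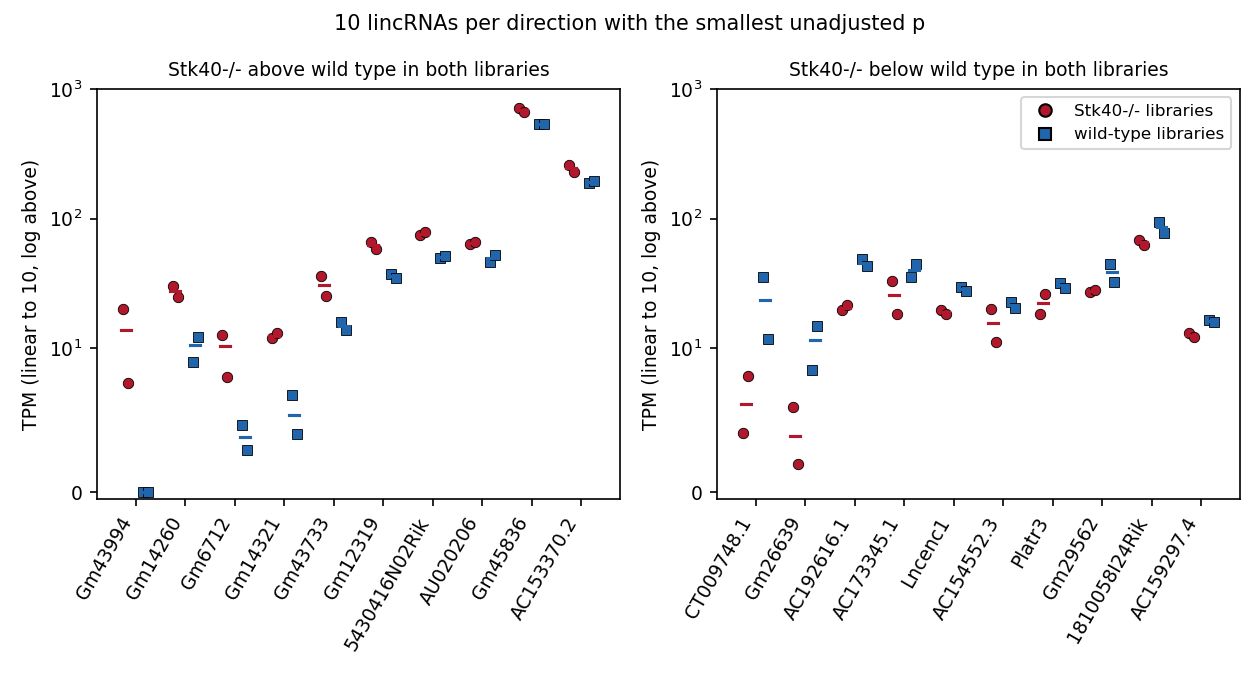
TPM of the 10 lincRNAs per direction with the smallest unadjusted p among those whose groups do not overlap, on an axis that is linear up to 10 TPM and logarithmic above. Points are libraries (circles Stk40-/-, squares wild type) and bars group means; AC192616.1 stands at 19.6 and 21.5 TPM in Stk40-/- cells, against 48.7 and 42.7 TPM in wild type.

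The sequence upstream is shown for 5 of these members, to set the promoters of lincRNAs below and above wild type side by side. They were chosen after the search, from the windows that held a motif match. The windows of Gm43733, Gm6712, Platr3, Platr10 and AC154552.3 held no match and are not printed, and those of AU020206 and AC159297.4, with 1 GGGCGG each, are not printed either. RefSeq gave promoters (250 bases before to 50 after the start, GRCm38.p6, matched by symbol or GENCODE synonym) for 64 members. Each was searched on both strands for the AP-1 motif TGANTCA, the octamer ATGCAAA, the TCF/LEF motif in the spelling CTTTGAT or the spelling CTTTGAA, the GATA motif AGATAAG, the SP/KLF motif GGGCGG and the TATA box TATAAA. Matches are in capitals. The windows are chr13:65379184-65379483 (plus strand) for AC192616.1, chr13:97434720-97435019 (plus) for Lncenc1, chr6:35252460-35252759 (plus) for 1810058I24Rik, chr5:100429486-100429785 (minus) for 5430416N02Rik and chr2:167777241-167777540 (plus) for Gm14321. The first 3 belong to lincRNAs below wild type and the last 2 to lincRNAs above it.
AC192616.1: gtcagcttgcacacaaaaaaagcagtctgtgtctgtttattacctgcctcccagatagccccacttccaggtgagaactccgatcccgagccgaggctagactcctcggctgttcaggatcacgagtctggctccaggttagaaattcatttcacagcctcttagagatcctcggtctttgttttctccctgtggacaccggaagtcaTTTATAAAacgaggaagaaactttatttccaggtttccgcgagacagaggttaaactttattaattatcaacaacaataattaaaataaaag
Lncenc1: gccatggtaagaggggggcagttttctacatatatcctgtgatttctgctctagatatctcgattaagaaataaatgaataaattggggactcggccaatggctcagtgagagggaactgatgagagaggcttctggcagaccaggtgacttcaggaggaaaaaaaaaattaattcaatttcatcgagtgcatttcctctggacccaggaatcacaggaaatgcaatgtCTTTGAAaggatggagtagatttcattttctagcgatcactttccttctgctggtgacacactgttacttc
1810058I24Rik: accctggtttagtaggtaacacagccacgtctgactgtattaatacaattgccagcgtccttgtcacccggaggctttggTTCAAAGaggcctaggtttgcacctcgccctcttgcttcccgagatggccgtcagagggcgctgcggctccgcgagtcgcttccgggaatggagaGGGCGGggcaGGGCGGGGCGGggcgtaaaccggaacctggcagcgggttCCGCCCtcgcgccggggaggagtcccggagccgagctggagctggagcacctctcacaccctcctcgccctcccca
5430416N02Rik: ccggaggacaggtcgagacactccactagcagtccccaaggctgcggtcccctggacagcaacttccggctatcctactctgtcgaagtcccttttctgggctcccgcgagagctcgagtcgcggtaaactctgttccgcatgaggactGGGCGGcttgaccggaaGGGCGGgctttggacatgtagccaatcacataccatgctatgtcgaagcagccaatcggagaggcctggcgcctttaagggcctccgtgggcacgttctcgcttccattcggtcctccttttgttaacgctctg
Gm14321: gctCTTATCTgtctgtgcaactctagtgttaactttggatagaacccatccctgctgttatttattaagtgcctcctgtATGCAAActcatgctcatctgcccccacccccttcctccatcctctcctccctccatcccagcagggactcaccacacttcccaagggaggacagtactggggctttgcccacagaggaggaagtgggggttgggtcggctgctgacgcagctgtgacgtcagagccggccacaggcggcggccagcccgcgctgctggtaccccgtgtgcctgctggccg

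AC192616.1 held overlapping TATAAA matches on the 2 strands, in a window whose start is 895 bases from the GENCODE start. Lncenc1 held 1 CTTTGAA, in a promoter of 42.3% GC. 1810058I24Rik held 4 GGGCGG matches, some of them overlapping, and 1 CTTTGAA, in a window of 65.0% GC. 5430416N02Rik held 2 GGGCGG matches and Gm14321 held 1 octamer and 1 AGATAAG match. No window printed held TGANTCA, which says only that these letters are not in these windows. Over the 64 member promoters, TGANTCA was in 4 (6.2%), against 7.8% of all 32851 RefSeq promoters, and GGGCGG in 23 (35.9%), against 35.7%. The octamer was in 7 (10.9%), against 4.6%, and TATAAA in 6 (9.4%), against 13.6%. CTTTGAA was in 4 (6.2%), against 5.1%, CTTTGAT in 2 (3.1%), against 3.7%, and AGATAAG in 2 (3.1%), against 3.0%. These shares were not tested. The GC content had a median of 52.7% in both sets. Of the 64, 40 had a RefSeq start within 100 bases of the GENCODE start.

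Taken by role, hosts of small nucleolar RNAs come first. These RNAs carry snoRNAs in introns, and the spliced exons of several are rapidly degraded. The list held 22 entries, Dancr being entered under different IDs. Of these, 20 were tested and 5 were members, and 0 passed in either direction. Of the 20, 3 had both Stk40-/- libraries above wild type and 5 below, with a median log2 fold change of -0.02. Over all tested genes 27.5% lay above and 16.6% below, with a median of 0.07. Snhg6 (chromosome 1, 9941959 to 9944118) was at 202 and 210 TPM in Stk40-/- cells, against 210 and 199 TPM in wild type. It differed little between libraries of either genotype (log2 fold change 0.01, SE 0.07; limma adjusted p = 0.975). Epb41l4aos had 80.8 and 98.4 TPM, against 111 and 81.8 TPM, Snhg12 had 101 and 65.9 TPM, against 113 and 73.1 TPM, and Snhg20 had 42.6 and 20.8 TPM, against 30.4 and 30.0 TPM. None of the 5 members on the list was separated between genotypes, Dancr (5.02 and 14.1 TPM, against 10.4 and 9.49 TPM) included. This Dancr entry is the member without a match in GENCODE vM21. The other Dancr entry, with a mean of 1.02 TPM, overlapped too. AC140477.3, named Snhg10 in GENCODE vM21 and missed by the list, which used the table's names, also overlapped, at 5.13 and 9.45 TPM, against 6.45 and 0.74 TPM.

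Hosts of other gene types were also tested. Snhg3 (a processed transcript in the table) had 32.7 and 30.2 TPM in Stk40-/- cells, against 61.0 and 67.6 TPM in wild type (log2 fold change -1.01, SE 0.11; limma adjusted p = 0.214). Snhg7 had 94.6 and 105 TPM, against 36.0 and 56.8 TPM (log2 fold change 1.12, SE 0.24; limma adjusted p = 0.342). These 2 hosts thus lay on opposite sides of wild type, and neither passed. Their log2 fold changes were the largest in size among the 20 host entries tested, and they were named after the values were seen.

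Hosts of microRNAs numbered 14 in the table, with 5 tested and 2 members. Of the 5, 0 passed, 3 lay above and 1 below wild type, with a median log2 fold change of 0.29, where 27.5% of all tested genes lay above and 16.6% below, with a median of 0.07. Mir17hg, which carries a cluster of microRNAs that act in cell proliferation, had 16.8 and 17.5 TPM in Stk40-/- cells, against 12.9 and 14.7 TPM in wild type (log2 fold change 0.29, SE 0.14; limma adjusted p = 0.529). Pvt1 (chromosome 15, 62037986 to 62378096), which lies beside Myc, had 11.0 and 8.75 TPM, against 7.77 and 6.22 TPM (log2 fold change 0.44, SE 0.21; limma adjusted p = 0.524). Both members lay above wild type without overlap. Myc itself overlapped at 11.8 and 10.0 TPM in Stk40-/- cells, against 15.2 and 9.67 TPM in wild type.

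The nuclear body RNAs Malat1, of nuclear speckles, and Neat1, the scaffold of paraspeckles, are neighbours on chromosome 19. Malat1 had 248 and 279 TPM in Stk40-/- cells, against 158 and 449 TPM in wild type. Neat1 had 22.7 and 17.02 TPM, against 32.8 and 16.1 TPM. In both RNAs the Stk40-/- values lay between the wild-type values, but the wild-type library that was high for Malat1 was the low one for Neat1. The log2 fold change of Malat1 was -0.02 (SE 0.52), the widest error among the 8 most abundant members, and its sign depended on which wild-type library was left out (0.73 without the second, -0.77 without the first).

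The pluripotency-linked list (the Platr RNAs, Lncenc1, Tunar and Trp53cor1) held 33 genes, 20 tested and 9 of them members, of which 0 passed. Of the 20 tested, 5 lay above and 2 below wild type, and the median log2 fold change was 0.16. These are again set against 27.5% above, 16.6% below and a median of 0.07 over all tested genes. Platr10 (chromosome 3, 75647446 to 75655731) had 54.4 and 63.6 TPM in Stk40-/- cells, against 30.9 and 48.1 TPM in wild type (log2 fold change 0.60, SE 0.24; limma adjusted p = 0.482). Leaving out wild-type library 1 gave 0.29, and leaving out wild-type library 2 gave 0.91. Platr3 (chromosome 2, 135648907 to 135652063) was on the other side at 18.5 and 26.3 TPM, against 32.0 and 29.3 TPM (log2 fold change -0.46, SE 0.20; limma adjusted p = 0.504). Leaving out Stk40-/- library 1 gave -0.21, and leaving out Stk40-/- library 2 gave -0.70. Platr22 had 10.4 and 5.54 TPM, against 4.40 and 4.02 TPM, and reached 5 TPM in the Stk40-/- mean alone. The pluripotency-linked lincRNAs thus lay on both sides, with Lncenc1 and Platr3 below and Platr10 and Platr22 above. The 5 others overlapped, and they included Platr11, which had 3.51 and 17.4 TPM in Stk40-/- cells, and in wild type was listed at 0 in library 1 and had 9.59 TPM in library 2.

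Of the mesoderm and heart list, Bvht (Braveheart, needed for cardiac commitment in mouse embryonic stem cells) was the only gene tested, with 3.65 and 3.97 TPM in Stk40-/- cells, against 3.13 and 10.6 TPM in wild type. Its groups overlapped, and 1 wild-type library held the high value. Fendrr, a lateral mesoderm RNA, and Rubie were listed at 0 in all 4 libraries. No member with a position lay on the X or the Y chromosome, and on the X list Jpx, Ftx and Firre were tested, with 0 passing. Jpx lay above wild type, at 1.94 and 3.40 TPM, against 0.93 and 0.92 TPM (log2 fold change 0.90, SE 0.39; limma adjusted p = 0.501). Ftx and Firre overlapped. Over all tested genes 27.5% lay above.

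Of the regulators expressed in most tissues, 2900097C17Rik, the mouse form of NORAD, a cytoplasmic RNA that binds Pumilio proteins, had 71.9 and 69.0 TPM in Stk40-/- cells, against 64.0 and 73.4 TPM in wild type (log2 fold change 0.04, SE 0.11; limma adjusted p = 0.911). Its 4 libraries lay close together. Gm42418 and Gm26917 lie at a ribosomal RNA sequence on chromosome 17, so their reads and those of ribosomal RNA cannot be told apart. Gm42418 had 69.7 and 59.5 TPM, against 50.8 and 50.8 TPM, and Gm26917 had 26.5 and 30.9 TPM, against 31.4 and 36.1 TPM. The pair thus lay on opposite sides of wild type.

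By position, 130 members matched GENCODE vM21 by Ensembl ID and lay on 19 chromosomes, most often chromosome 13 (16 members), chromosome 5 (12) and chromosome 2 (11). Of these, 123 were still typed lincRNA there, and Platr17 and 6330403K07Rik were typed protein-coding. By the same annotation 16 members overlapped the body of a protein-coding gene, so not all lay between genes. Gm45836 overlapped Gm20388 on the same strand without sharing exons. On the same strand 1300002E11Rik overlapped exons of Map3k13, and Gm20707 overlapped exons of Zfp984. The longest transcript had a median of 1196.5 bases (range 227 to 20771, the longest being Neat1), against 1009 bases in lincRNAs with a mean of 1 to 5 TPM. In 19 members (14.6%) the longest transcript had a single exon, which does not mean that every transcript of the gene is unspliced. The nearest coding start was 29.7 kb away at the median, and 19 members lay head to head with a coding gene whose start was within 5 kb (14.6%, against 15.0% of lincRNAs at 1 to 5 TPM).

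The named members below wild type included 4 that lie close together on chromosome 13 (AC154552.3, AC192616.1, Gm26639 and AC173345.1), beside Lncenc1 and 6720427I07Rik elsewhere on that chromosome. The stretch around the 4, from the start of Gm36445 to the end of Gm26806 (65241753 to 66519887, 1.28 Mb), was chosen after values were seen. Its right edge lies beyond the last of the 4 and takes in 2410141K09Rik and Gm26806, both below wild type. The stretch held 28 tested genes, 21 with a negative log2 fold change, 13 with both Stk40-/- libraries below both wild-type libraries and 0 above. The median log2 fold change there was -0.64, against 0.09 over the other 597 tested genes of chromosome 13, of which 14.9% were below, where the stretch had 46.4% below. Most of the 28 were pseudogenes (14) or lincRNAs (10), and 4 were listed at 0 in both Stk40-/- libraries, so that they passed the mean filter through wild type alone. Of these 4, the pseudogenes AC116589.10 and AC164117.2 had the same value in every library but were counted separately. Among the 18 genes with both group means of at least 1 TPM, 13 were negative and 8 were below. The choice of the stretch fixed part of this, so no test is given.

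Within the stretch, Gm26639 had 5.89 and 1.94 TPM in Stk40-/- cells, against 8.48 and 14.8 TPM in wild type (log2 fold change -1.44, SE 0.52; limma adjusted p = 0.447). Without Stk40-/- library 2 this was -0.83. Gm26639 reached 5 TPM in the wild-type mean alone, so the choice of members required it to differ. AC173345.1 had 32.9 and 18.5 TPM, against 35.7 and 44.7 TPM, and AC154552.3 had 20.2 and 11.2 TPM, against 22.6 and 20.6 TPM. AC173345.1 had a log2 fold change of -0.67, which was -0.27 with Stk40-/- library 2 left out and -1.07 with Stk40-/- library 1 left out. For AC154552.3 it was -0.49, with -0.09 and -0.88 in the same order. The coding gene 2410141K09Rik, 1060.8 kb from AC192616.1, was at 9.71 and 3.35 TPM in Stk40-/- cells, against 23.6 and 17.03 TPM in wild type (log2 fold change -1.63). The 519 bases of Gm26639 match that gene at 97.5% identity and match Platr2, listed at 0 in all 4 libraries, at 97.9%, and AC154552.3 matches it over 288 bases at 96.2%, so the values of these genes are not independent. The coding gene Zfp369 overlapped at 32.1 and 25.6 TPM, against 36.2 and 26.3 TPM. The other 2 members there, Gm36445 and AC192334.3, also overlapped.

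Members were then set beside their nearest coding genes. Of the 19 head-to-head pairs, Gm12319 with Eno3, 5031425E22Rik with Kmt2e, Gm11464 with Ncoa3 and AI480526 with Setd1b had both genes above wild type. Taken singly, 27.5% of all tested genes lay above and 16.6% below, so these pairs are a description only. AI480526, 527 bases from the start of the histone methyltransferase gene Setd1b, had 10.1 and 13.1 TPM in Stk40-/- cells, against 6.05 and 7.14 TPM in wild type, and Setd1b had 6.47 and 7.57 TPM, against 6.19 and 6.00 TPM. 5031425E22Rik had 21.1 and 16.99 TPM, against 14.3 and 13.1 TPM, and Kmt2e, which encodes a SET domain protein 172 bases away, had 21.7 and 19.7 TPM, against 19.2 and 12.4 TPM. In 2 pairs the lincRNA lay above wild type and its neighbour below. Gm45836 had the values given above, while Klhdc4, a kelch domain gene whose start is 3678 bases away, had 51.1 and 53.1 TPM in Stk40-/- cells, against 56.1 and 54.0 TPM in wild type. Gm14230 had 69.5 and 62.5 TPM in Stk40-/- cells, against 56.1 and 55.0 TPM in wild type, while Tgif2, a repressor of TGF-beta signalling whose start is 115 bases away, had 38.5 and 36.7 TPM, against 55.3 and 42.4 TPM.

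A divergent pair at a Wnt receptor gene was uneven. 5930412G12Rik, 151 bases from Fzd10, had 11.3 and 17.4 TPM in Stk40-/- cells, against 20.8 and 4.25 TPM in wild type. Fzd10 had 16.1 and 19.9 TPM, against 31.1 and 33.7 TPM, a log2 fold change of -0.82. The lincRNA overlapped between genotypes while its neighbour lay below wild type in both libraries.

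Over the 101 members whose nearest coding gene was tested, Pearson's r between the log2 fold changes of the 2 genes was 0.07 and Spearman's rho 0.10, and 60 pairs had the same sign. Over 17 head-to-head pairs r was 0.02 with 8 of the same sign, and over 30 pairs with starts within 10 kb r was 0.10 with 16 of the same sign. These are correlations across genes, which share the same 4 libraries and are not independent replicates.

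**Figure D4:**
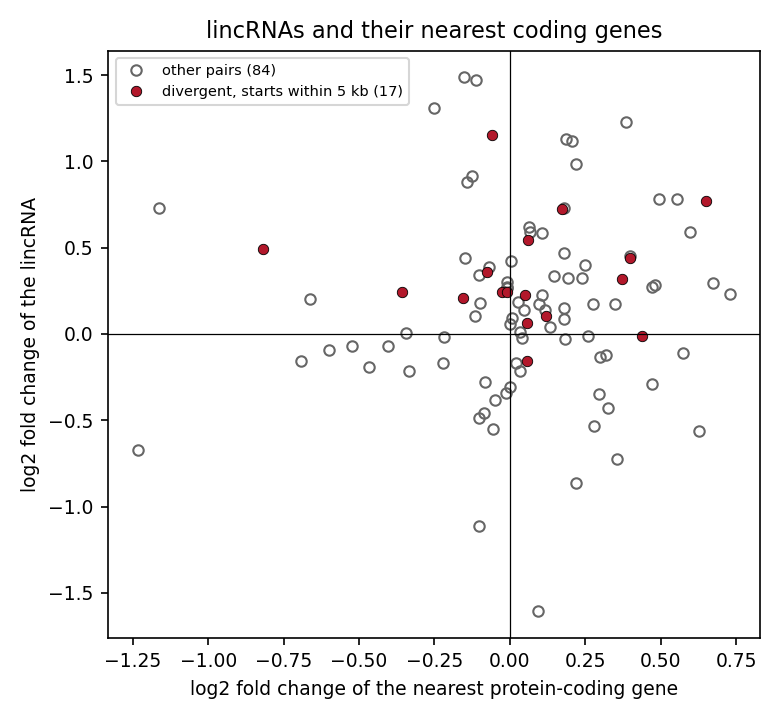
Log2 fold change of each lincRNA (vertical) against that of its nearest protein-coding gene (horizontal), Stk40-/- against wild type, for 101 pairs. Filled points are the 17 head-to-head pairs with starts within 5 kb; the points spread to both sides of 0 on either axis, with r at 0.07.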

How the data were processed

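RNA sequencing values of 4 mouse libraries were used, 2 Stk40-/- and 2 wild-type, grouped by sample titles. Per the file headers, the authors deposited 1 TPM value per gene and library, and each column adds up to 1000000. The submitters' processing notes name CASAVA 1.7, Salmon 0.8.2 and the human build hg38, although the gene IDs are mouse, so which annotation was used is unknown here. Salmon divides reads among similar transcripts, so genes with near-identical copies are uncertain, and strand use is not stated. Depth is unknown, and there were 0 per-sample columns left unused.

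The 15739 genes averaging 1 TPM or more were compared on log2(TPM + 1) in limma 3.58.1 (R 4.3.3), with an intensity trend, without a replicate block and with Benjamini-Hochberg adjustment over all of them at 0.05. The script was tested on simulated data. An exact permutation test of 2 against 2 libraries cannot go below p = 0.333 (two-sided), so summed levels are given per library. Positions and transcripts came from GENCODE vM21 (GRCm38) by Ensembl ID without version, 51633 of 51826 IDs and 130 of 131 members matching. Copies were sought with blastn 2.17.0, and promoters came from RefSeq (GRCm38.p6).

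The members and lists were chosen with earlier results of these data known. Named members were the 8 highest means, the 10 smallest p per direction among those whose groups did not overlap, up to 4 per role list and 3 on either side of the threshold. Others were added after their values were seen. These were Dancr, Snhg3, Snhg7, Jpx, Platr11, Platr22, AC153548.2, genes of the chromosome 13 stretch, of copies and of head-to-head pairs, and members at 0.

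Alternatives were pseudocounts of 0.1 and 0.01, filters at a mean above 0 and at least 5 TPM, quantile normalization, rescaling without mitochondrial and ribosomal RNA genes, limma without the trend, a replicate block, and leaving out each library.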

Additional observations from a re-analysis of the deposited data

How the results depend on the processing

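In every alternative run, 0 members and 0 genes passed in limma, and the smallest adjusted p over all genes ranged from 0.0694 to 0.319. The median log2 fold change of the members was 0.18 in the main setting and 0.11 with quantile normalization (all tested genes, 0.065 and 0.017). It ranged from 0.064 (without Stk40-/- library 1) to 0.23 (without Stk40-/- library 2) when 1 library was left out, with 0.071 without wild-type library 2. For all tested genes it was 0.046, 0.074 and 0.045 in the same order. With a replicate block the members' median was 0.18. There 28 members had an unadjusted p under 0.05, against 19 without the block, and 0 passed. Same-numbered libraries shared only a number in the labels (r of their replicate differences 0.089 across tested genes and 0.23 across members, with library 1 the higher in 85 members in Stk40-/- cells and in 93 in wild type). Of 478 values compared for the 40 named members, 458 kept their direction and 20 turned it. With quantile normalization Snhg6 turned to -0.036 and 2900097C17Rik to -0.016. The other turned values came from leaving out 1 library, where the log2 fold change ranged from -0.075 to 0.53 for Platr13, -0.063 to 0.55 for Platr15, -0.77 to 0.73 for Malat1, -0.39 to 0.059 for Gm37381, -0.029 to 0.047 for Snhg6, -0.31 to 0.12 for Epb41l4aos, -0.47 to 0.15 for Snhg12, -0.51 to 0.48 for Snhg20, -0.71 to 0.27 for Neat1, -1.27 to 0.22 for Bvht, -0.059 to 0.14 for 2900097C17Rik, -0.49 to 0.16 for Gm45899 and -0.26 to 0.45 for Halr1. Without a turn, it moved by over 1.5 times for 1810058I24Rik (-0.25 without wild-type library 1), Pvt1 (0.29 without Stk40-/- library 1), Gm26917 (-0.12 without Stk40-/- library 1, -0.13 without wild-type library 2) and 6720427I07Rik (-0.22 to -0.057, the ends being without wild-type library 1 and 2, and -0.081 when Stk40-/- library 2 was dropped), beside those given in the text. The cause was not tested. A genotype left with 1 library was assumed to vary like the other. Unknown depth limits every value, most for RNAs at 5 to 10 TPM.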
